A study of Rattus norvegicus with 24 samples.

Results

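The miR-26 family was represented by 4 rows of the small RNA count tables, the guide strands miR-26a-5p (rno-miR-26a-5p) and miR-26b-5p (rno-miR-26b-5p) and the opposite arms miR-26a-3p and miR-26b-3p. These rows were chosen by name, as every row named miR-26a or miR-26b, out of 728 miRNA rows listed for each brain region. miR-26a-5p was already known to be among the most abundant miRNAs of these libraries, so that its high level is given here as a description. Small RNA libraries came from 12 adult male Sprague-Dawley rats, which gave tissue of the cortex around the lesion (perilesional cortex) and of the thalamus on the same side 3 months after lateral fluid-percussion injury (traumatic brain injury, TBI, 6 rats) or a sham operation (6 rats). TBI was a fluid pulse delivered to the exposed dura of the left hemisphere, and the sham-operated rats went through the surgery without the impact. The TBI rats were not a random draw from the injured animals, since they had been picked by magnetic resonance imaging for a chronic inflammatory rim around the lesion. Each rat gave 1 library of each region, which makes 4 groups of 6 libraries. Pieces of whole tissue were sequenced, so that fewer cells of a type and less of a miRNA per cell cannot be told apart.

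A miRNA is cut from a hairpin precursor, and 1 of its arms, the guide, is loaded into an Argonaute protein, which it directs to messenger RNAs by pairing of the seed, bases 2 to 8 from its 5′ end. The other arm, the passenger, is mostly degraded. miR-26 is a conserved family whose genes lie within genes of CTD small phosphatases (Ctdsp genes), enzymes that hold back neuronal genes in non-neuronal cells and are themselves targets of miR-26 during neuronal differentiation. Ezh2, a histone methyltransferase, is another well-known miR-26 target.

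The mature sequences are shown because the 2 guides can be told apart by few bases. They are the RefSeq sequences, written 5′ to 3′ with the seed in capitals, and all 4 rows had an entry. The coordinates are those of the RefSeq build GRCr8, which is not the build the reads were mapped to.
miR-26a-5p: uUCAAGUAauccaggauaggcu
miR-26b-5p: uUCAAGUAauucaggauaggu
miR-26a-3p: cCUAUUCUugguuacuugcac
miR-26b-3p: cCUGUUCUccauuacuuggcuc
miR-26a-5p lies at chr8:127633063-127633084 and miR-26a-3p at chr8:127633102-127633122, both on the plus strand of the gene Mir26a, inside the span of Ctdspl. miR-26b-5p lies at chr9:83425723-83425743 and miR-26b-3p at chr9:83425759-83425780, both on the plus strand of Mir26b, inside the span of Ctdsp1.

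The 2 guides carried the same seed, UCAAGUA, and no other rat mature miRNA in RefSeq had it. Counted from the 5′ end, they differed by C11U and C21U (the base of miR-26a-5p first), so that 19 of the 21 compared bases were equal, and miR-26a-5p had 1 base more. The seeds of the 3p arms, CUAUUCU and CUGUUCU, were each found in a single mature miRNA. A read with an error or an edited base at position 11 could be counted for the other guide, and how such reads were assigned is not given in the sources used here. Since miR-26a-5p had 22.7 to 64.7 times the reads of miR-26b-5p, the values of miR-26b-5p are the less certain of the pair.

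The libraries held 744564 to 4069284 miRNA reads in cortex and 523298 to 4139901 in thalamus. The thalamus libraries of sham rat 55 (523298 reads) and TBI rat 56 (538194 reads) stood apart by depth, as the other 10 thalamus libraries held at least 1359398 reads. Values without these 2 rats are given beside many of the results they enter. Levels are given as CPM, the counts per 1000000 reads, after scaling by TMM, a scaling that sets most miRNAs equal between libraries, and also as a percentage of a library's miRNA reads. miR-128-3p, a neuronal miRNA, was the largest row in every library. Its share was 20.9% to 32.8% of reads in sham cortex and 17.3% to 20.8% in TBI cortex, so that the ranges all but met. After TMM they overlapped, with a lowest sham value of 203558 CPM and a highest TBI value of 212879 CPM. Without TMM the median fold change of all miRNAs in cortex rose by 0.20 on the log2 scale. Of the miRNAs that mark neurons, 2 of 5 were called lower in TBI cortex (miR-128-3p and miR-132-3p) and 0 of 5 passed in thalamus. The log2 fold changes of the 5 spanned -0.75 to 0.15 in cortex, so that not all were lower there. In thalamus they spanned -0.61 to -0.12. Of all miRNAs tested, 5.66% were called in cortex and 0.513% in thalamus. For miR-128-3p, the study's droplet digital PCR of the same cortex samples gave no significant change. The summed neuronal level was 234307 to 313682 CPM in TBI cortex and 297756 to 557531 CPM in sham cortex. Microglia and leukocyte miRNAs summed to 811 to 1802 CPM in TBI cortex and 744 to 1089 CPM in sham cortex, with 0 of 5 called. In thalamus 1 of the 4 tested was called higher after TBI (miR-155-5p). All those tested had log2 fold changes above 0, from 0.46 to 1.05 in cortex and from 0.48 to 1.45 in thalamus. No marker of oligodendrocytes (3), vessels (3) or red cells (2 tested) passed in either region, while miR-211-5p of the 2 tested epithelial markers was higher in TBI cortex and miR-146a-5p of the 2 markers of reactive glia in TBI thalamus. No marker was at 0 in all libraries.

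miR-26a-5p carried nearly all reads of the family. It was the second or the third most abundant miRNA in every library, and its mean level in both regions came after miR-128-3p and miR-9a-5p, a miRNA of neural progenitors and neurons. Over the 12 cortex libraries the means were 235713 CPM for miR-128-3p, 97329 CPM for miR-9a-5p, 67449 ± 7333 CPM (SD) for miR-26a-5p and 36309 CPM for miR-99a-5p, the next below, followed by miR-30d-5p at 33921 CPM. Over the 12 thalamus libraries they were 132257 CPM for miR-128-3p, 78367 CPM for miR-9a-5p, 75259 ± 11053 CPM for miR-26a-5p, 44670 CPM for miR-99a-5p and 37973 CPM for let-7i-5p. In thalamus, miR-9a-5p and miR-26a-5p thus lay within 1 SD of each other. miR-26b-5p stood at position 55 in cortex with a mean of 1665 ± 268 CPM, between miR-383-5p (1666 CPM) and miR-423-3p (1633 CPM), with miR-151-3p (1908 CPM) and miR-185-5p (1599 CPM) one place further out. In thalamus it stood at position 52 with 2523 ± 623 CPM, below miR-434-5p (2881 CPM) and miR-541-5p (2742 CPM) and above miR-151-3p (2519 CPM) and miR-185-5p (2415 CPM). None of these differences from a neighbour of miR-26b-5p exceeded its SD. Together the 4 rows took 6.76% ± 0.444 (SD, n = 6) of miRNA reads in sham cortex, 7.02% ± 0.591 in TBI cortex, 7.46% ± 1.36 in sham thalamus and 8.06% ± 0.399 in TBI thalamus. Of the reads of the family, miR-26a-5p made up 95.8% to 98.5%. A read covers a whole mature miRNA, so that these read numbers need no correction for length.

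The question asked of each region was whether miRNA levels differed between TBI and sham rats 3 months after surgery. In neither region did a miR-26 miRNA pass the test. In cortex, 0 of the 3 rows tested were called, against 5.66% of all miRNAs tested (21 of 371), and in thalamus 0 of 3, against 0.513% (2 of 390). The test was the quasi-likelihood test of edgeR with Benjamini-Hochberg adjustment over all miRNAs tested in a region, and a miRNA was called at an adjusted p of at most 0.05. The levels of TBI and sham rats overlapped for each of the 3 rows in both regions, as they did for all but 2.7% of the miRNAs in cortex and 1.28% in thalamus. The fourth row, miR-26a-3p, fell under the filter on low counts in both regions.

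In cortex, miR-26a-5p ranged from 59671 CPM (rat 34) over a median of 72112 to 79909 CPM (rat 38) in sham rats. In TBI rats it ranged from 56731 CPM (rat 63) over a median of 62084 to 70894 CPM (rat 56). All 6 TBI libraries lay below the sham median and 3 sham libraries lay above every TBI library, but the ranges overlapped. The means were 71393 ± 7249 CPM in sham and 63505 ± 5329 CPM in TBI (SD, n = 6 each), a log2 fold change of -0.17 (SE 0.10, edgeR adjusted p = 0.288). On the scale of reads the order of the means turned, with 6.62% ± 0.417 of miRNA reads in sham and 6.83% ± 0.568 in TBI, and 3 TBI libraries above every sham library. The fit that used library size in place of TMM gave a log2 fold change of 0.04 (edgeR adjusted p = 0.741). The sign of the cortical difference in miR-26a-5p therefore depended on the scaling, and neither scaling called it.

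miR-26b-5p lay on the other side of 0 in cortex. Sham rats ranged from 1168 CPM (rat 32) over a median of 1544 to 1924 CPM (rat 55), and TBI rats from 1562 CPM (rat 63) over a median of 1873 to 2020 CPM (rat 56). All 6 TBI libraries were above the sham median, 2 of them above every sham library, and 3 sham libraries were below every TBI library. The means were 1521 ± 263 CPM in sham and 1810 ± 196 CPM in TBI (SD, n = 6 each), a log2 fold change of 0.25 (SE 0.13, edgeR adjusted p = 0.264). As a percentage of miRNA reads, miR-26b-5p was at 0.143% ± 0.0347 in sham and 0.195% ± 0.0260 in TBI, with 4 TBI libraries above every sham library and 5 sham libraries below every TBI library. With library size in place of TMM the log2 fold change was 0.45 (SE 0.17), with an unadjusted p of 0.0165 and an adjusted p of 0.0955 in edgeR. The direction was thus the same on both scales, and the difference did not pass on either.

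**Figure D1:**
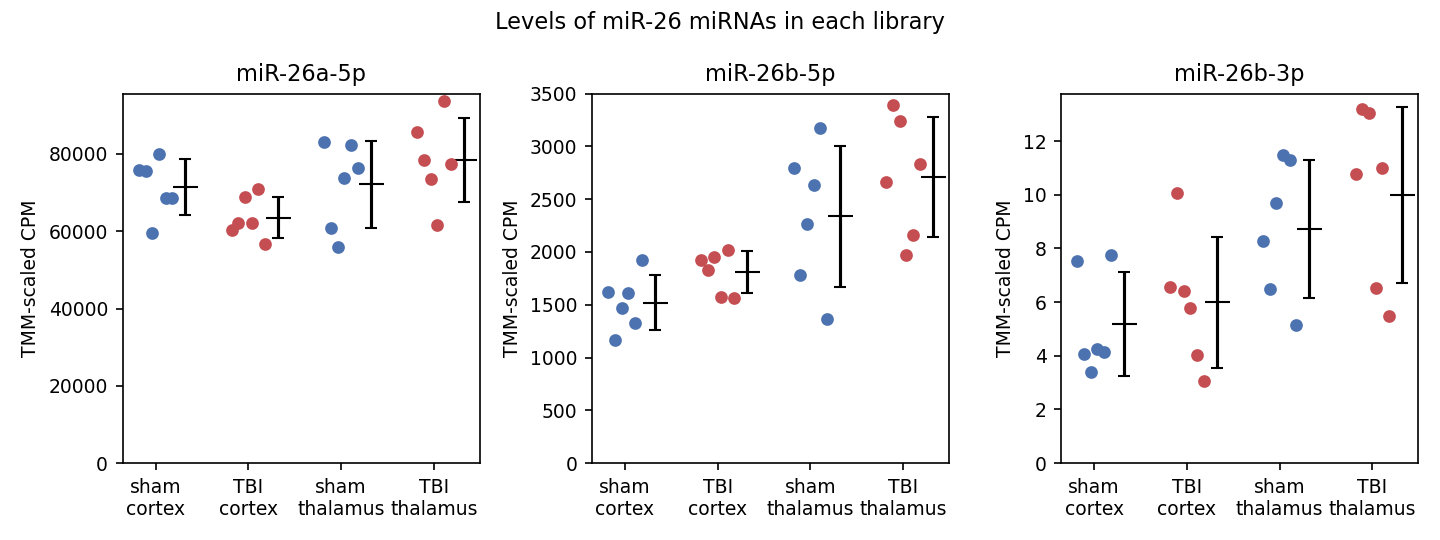
Levels of miR-26a-5p, miR-26b-5p and miR-26b-3p in each library, in CPM scaled by TMM within each region (y axes start at 0). Each point is 1 rat, blue for sham and red for TBI, with the group mean and SD (n = 6) in black. The TBI points of miR-26b-5p in cortex all lie above the sham median of 1544 CPM, those of miR-26a-5p all below the sham median of 72112 CPM, and the ranges of TBI and sham overlap in every panel.

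In thalamus, miR-26a-5p ranged from 55952 CPM (rat 34) over a median of 75152 to 83137 CPM (rat 26) in sham rats and from 61703 CPM (rat 52) over a median of 77947 to 93752 CPM (rat 56) in TBI rats. The means of 72123 ± 11262 and 78395 ± 10880 CPM (SD, n = 6 each) differed by a log2 fold change of 0.12 (SE 0.15, edgeR adjusted p = 0.832). The difference was smaller than the SD of either group. miR-26b-5p ranged from 1368 CPM (rat 55) over a median of 2450 to 3170 CPM (rat 50) in sham rats and from 1969 CPM (rat 52) over a median of 2750 to 3390 CPM (rat 24) in TBI rats. Its means were 2336 ± 670 and 2710 ± 567 CPM, a log2 fold change of 0.21 (SE 0.22, edgeR adjusted p = 0.825). For each guide, 4 TBI libraries lay above the sham median and 2 below it. Without rats 55 and 56 the log2 fold changes were 0.084 for miR-26a-5p (edgeR adjusted p = 0.883) and 0.16 for miR-26b-5p (edgeR adjusted p = 0.812).

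**Figure D2:**
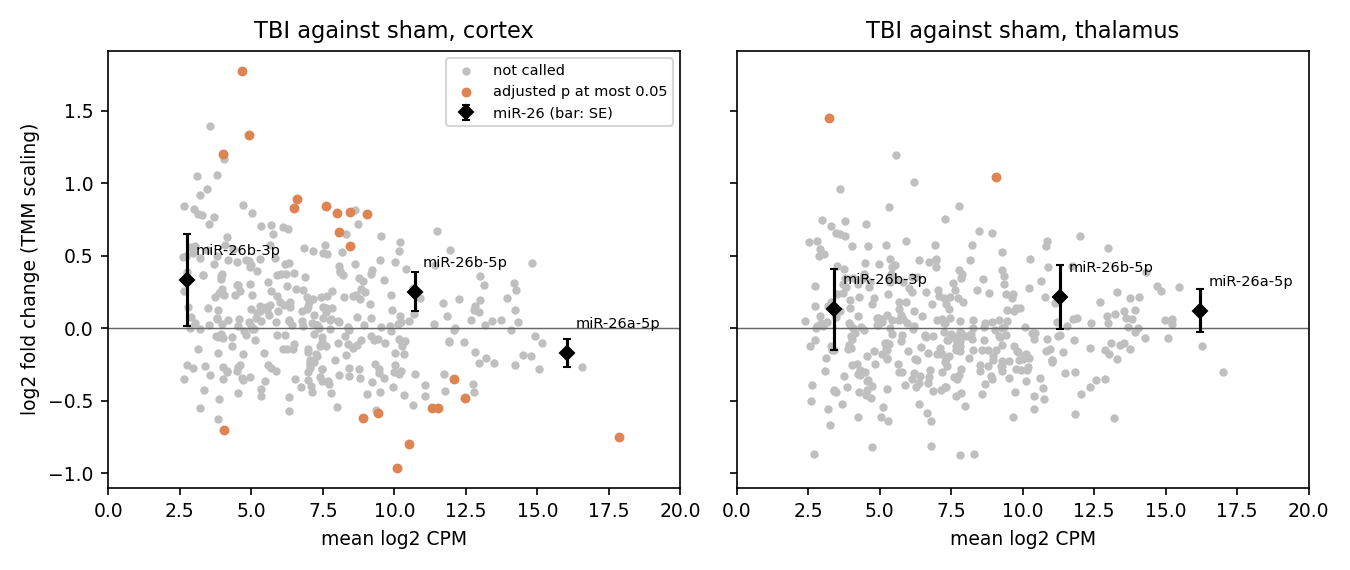
Log2 fold change of TBI against sham (y axis) against the mean level (x axis, log2 CPM) for all miRNAs tested in cortex and in thalamus. Grey points were not called, orange points had an edgeR adjusted p of at most 0.05, and black diamonds are the miR-26 rows with their SE. In cortex miR-26a-5p lies at -0.17 and miR-26b-5p at 0.25, in thalamus at 0.12 and 0.21, all among the grey points.

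Whether the response to injury differed between cortex and thalamus was tested in a fit of all 24 libraries, as the cortical minus the thalamic log2 fold change. No miRNA was called (0 of 407, 0.0%, against 16 at an unadjusted p under 0.05). For miR-26a-5p the difference was -0.34 (SE 0.15), with an unadjusted p of 0.0369 and an adjusted p of 1.00 in edgeR. It came to -0.06 with library size in place of TMM, and to -0.30 without rats 55 and 56 (edgeR unadjusted p = 0.0907). For miR-26b-5p the difference was -0.00 (SE 0.26), and its sign changed with the settings. The opposite signs of the miR-26a-5p fold change in cortex and thalamus thus did not amount to a difference between the regions that passed the test.

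The ratio of the guides within a library needs no scaling between libraries, and in cortex it was higher in TBI than in sham rats. In sham cortex there were 1.55 (rat 32) to 2.80 (rat 55) reads of miR-26b-5p per 100 reads of miR-26a-5p, with a median of 2.08. In TBI cortex there were 2.54 (rat 52) to 3.18 (rat 22), with a median of 2.84. Of the 6 TBI libraries 4 lay above every sham library, and of the 6 sham libraries 5 lay below every TBI library. The exception was sham rat 55, as it was for miR-26b-5p as a percentage of reads, which divided the libraries in the same numbers. The means were 2.15 ± 0.436 and 2.85 ± 0.210 reads per 100 (SD, n = 6 each), which on the log2 scale was a difference of 0.43 (SE 0.13), or 1.35-fold. An exact two-sided permutation test over libraries gave p = 0.00649, and 0.0390 after Benjamini-Hochberg adjustment over the 6 ratio comparisons made. The call was a narrow one, since a comparison of medians gave 0.45 with an adjusted p of 0.0779 (exact permutation test), and the adjusted p exceeded 0.05 when sham rat 32 or 50 or any of the 6 TBI rats was left out, with differences between 0.34 and 0.51 over all rats left out in turn. Without rats 55 and 56, which were left out for the depth of their thalamus libraries, the difference was 0.51 (exact permutation test, adjusted p = 0.0238). Leaving out rat 55 removed the only sham library among the TBI values, so that the groups no longer overlapped. This value therefore adds no support.

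The cortical ratio moved with the share of miR-128-3p among the sham libraries. Over the 6 sham cortex libraries, the percentage of miR-128-3p and the log2 ratio of the guides had a Pearson's r of -0.88 (exact permutation p = 0.025, 0.05 adjusted over 4 groups) and a Spearman's rho of -0.77 (exact permutation p = 0.103). Without the 2 libraries farthest from the median share r was -0.44, so that the relation rested on those libraries. Over the 6 TBI cortex libraries r was -0.08 (exact permutation p = 0.911) and rho was 0.03 (exact permutation p = 1.00). Sham rat 55, whose ratio lay among those of the TBI rats, also had the lowest miR-128-3p share of the sham cortex libraries (20.9%), and sham rat 32, with the lowest ratio, the highest (32.8%). The TBI cortex libraries, where the ratio was higher, also had the lower range of summed neuronal levels given above. That sum is largely miR-128-3p itself, and its part in the ratio was not tested.

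In thalamus the ratio did not separate the groups. Sham rats had 1.79 (rat 55) to 4.05 (rat 34) reads of miR-26b-5p per 100 reads of miR-26a-5p with a median of 3.47, and TBI rats 2.31 (rat 56) to 4.41 (rat 45) with a median of 3.42. The means were 3.26 ± 0.818 and 3.50 ± 0.800 (SD, n = 6 each), a log2 difference of 0.12 (SE 0.23; exact permutation p = 0.613, adjusted 0.740). The sign turned when medians were compared (-0.02) and when rat 55 was left out (-0.05), and without rats 55 and 56 the difference was 0.069 (exact permutation test, adjusted p = 0.714). A test of the difference between the regions' injury effects, over the within-rat differences of cortex and thalamus, gave 0.31 on the log2 scale (exact permutation p = 0.307), so that the ratio was not shown to respond differently in the 2 regions. Without rats 55 and 56 the same difference was 0.44 (exact permutation p = 0.00794, the smallest that 5 rats against 5 allow), so that this result turned on those 2 rats, whose removal was chosen after seeing the data.

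**Figure D3:**
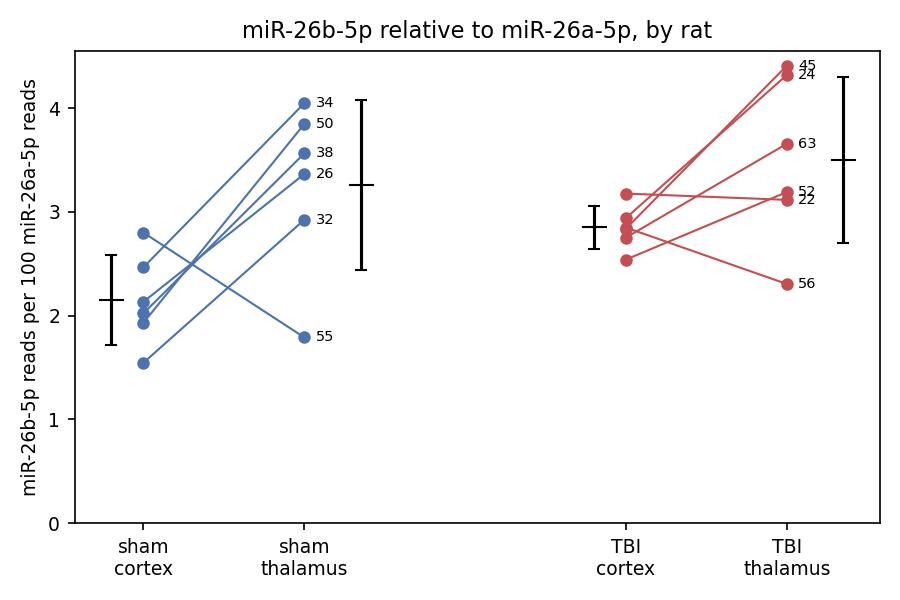
Reads of miR-26b-5p per 100 reads of miR-26a-5p (y axis, from 0) in each library, with a line joining the cortex and thalamus of 1 rat and the number of the rat beside its thalamus point. Blue is sham, red is TBI, and black marks are the group means with SD (n = 6). In cortex 5 of the 6 sham points lie below all TBI points, and rats 55 and 56 have the lowest thalamus points of their groups.

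The thalamic ratio followed the depth of the libraries. Rats 55 and 56, with the shallowest thalamus libraries, had the lowest ratios of their groups. Over the 6 sham thalamus libraries the log2 number of miRNA reads and the log2 ratio had a Pearson's r of 0.96 (exact permutation p = 0.00139, the smallest that the orders of 6 libraries allow, and 0.00833 adjusted over 6 relations). Spearman's rho was 1.00 (exact permutation p = 0.00278), and r was 1.00 without the 2 libraries farthest from the median depth. Over the 6 TBI thalamus libraries r was 0.93 (exact permutation p = 0.00972, adjusted 0.0292) with a rho of 0.83 (exact permutation p = 0.0583), and r without the 2 farthest libraries was 0.72. In cortex no such relation was found, with r = -0.57 in sham (exact permutation p = 0.243, rho = -0.37) and r = 0.17 in TBI (exact permutation p = 0.808, rho = 0.26), although r in sham was -0.90 without the 2 farthest libraries. The share of miR-128-3p moved with the thalamic ratio too, with r = -0.97 in sham (exact permutation p = 0.00833, adjusted 0.0333, rho = -0.94) and r = -0.77 in TBI (exact permutation p = 0.0722, adjusted 0.0963, rho = -0.83). Without the 2 farthest libraries these were -0.64 and -0.24. Depth and the share of miR-128-3p cannot be told apart here, as rats 55 and 56 had both the fewest reads and the largest miR-128-3p shares of their thalamus groups (20.6% and 15.6%).

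**Figure D4:**
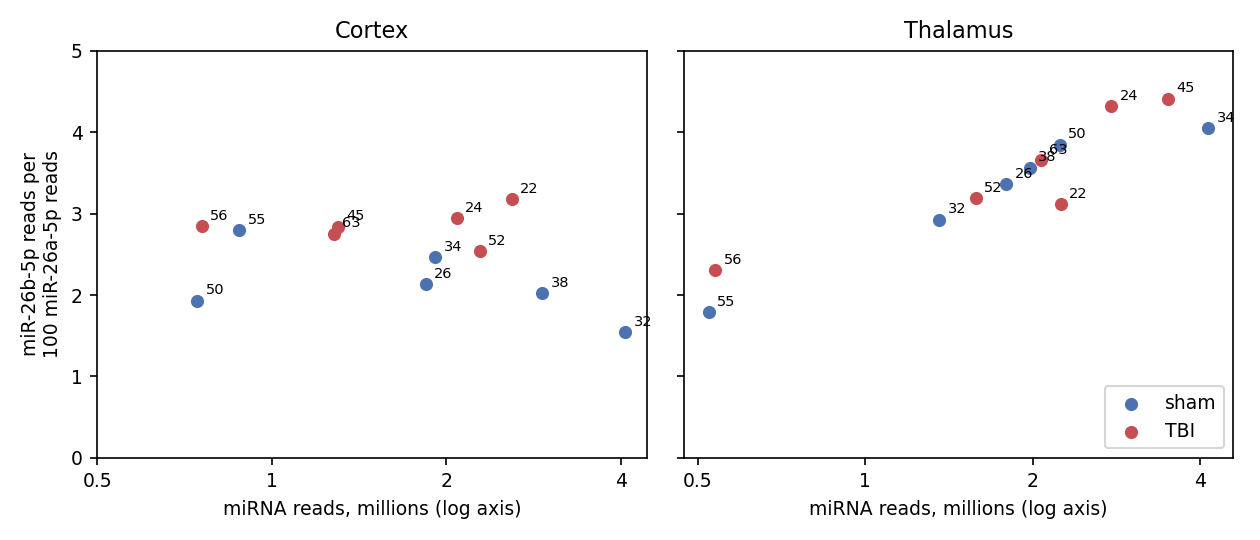
Reads of miR-26b-5p per 100 reads of miR-26a-5p (y axis, from 0) against the number of miRNA reads of the library (x axis, in units of 1000000 reads, log scale), with sham in blue, TBI in red and the number of the rat beside each point. In thalamus the ratio is higher in deeper libraries (r = 0.96 in sham and 0.93 in TBI, n = 6 each), while the cortex panel shows no such order in TBI (r = 0.17) and a falling one in sham (r = -0.57).

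Cortex and thalamus of the same rats were compared to describe the regional levels of the family. On the scale of reads the regions had the same order for both guides, with thalamus above cortex. miR-26a-5p took 7.79% ± 0.373 of miRNA reads in TBI thalamus, 7.22% ± 1.28 in sham thalamus, 6.83% ± 0.568 in TBI cortex and 6.62% ± 0.417 in sham cortex, and no neighbours in this order were further apart than the larger of their SDs. With TMM over all 24 libraries the order was another, with 80282 ± 7872 CPM in sham cortex, 70638 ± 8551 in TBI thalamus, 69277 ± 6321 in TBI cortex and 64863 ± 8525 in sham thalamus, and only the first and the second of these neighbours were further apart than their SDs. miR-26b-5p kept its order on both scales. It was at 2446 ± 513 CPM in TBI thalamus, 2109 ± 596 in sham thalamus, 1981 ± 286 in TBI cortex and 1712 ± 301 in sham cortex, and no neighbours in this order were further apart than their SD.

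In sham rats 1 of the 3 miR-26 rows tested was called between the regions, against 25.1% of all miRNAs (102 of 407), and in TBI rats 0 of 3, against 27.3% (111 of 407). The called row was miR-26a-5p, higher in cortex by 0.31 on the log2 scale (SE 0.11, edgeR adjusted p = 0.0362), in 6 of 6 sham rats. This call depended on the settings. It stood with the rat as a replicate block (0.31, edgeR adjusted p = 0.0463). With library size in place of TMM the value was -0.13 (edgeR adjusted p = 0.333), and as a percentage of reads cortex was higher in 2 of 6 rats. Without the filter on low counts the difference was 0.30 (edgeR adjusted p = 0.105), without rats 55 and 56 it was 0.31 (edgeR adjusted p = 0.0576), and leaving out any of the 12 rats except TBI rat 22 ended the call in edgeR. The median of all miRNAs itself moved by -0.42 on the log2 scale between these scalings. In TBI rats the difference was -0.03 (SE 0.11, edgeR adjusted p = 0.872).

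miR-26b-5p was at a log2 difference of -0.30 between cortex and thalamus in sham rats (SE 0.19, edgeR adjusted p = 0.242) and also -0.30 in TBI rats (SE 0.19, edgeR adjusted p = 0.250). In sham rats 5 of 6 had the lower level in cortex, and the exception was rat 55. Without rat 55 the sham difference was -0.51 (edgeR adjusted p = 0.0333), without rats 55 and 56 it was -0.52 (edgeR adjusted p = 0.0278), and with library size in place of TMM -0.75 (edgeR adjusted p = 0.0104). The ratio of miR-26b-5p to miR-26a-5p was 1.49-fold lower in sham cortex than in sham thalamus, a log2 difference of -0.58 (SE 0.21; exact permutation p = 0.0303, adjusted 0.0909). In TBI rats the log2 difference was -0.27 (SE 0.15; exact permutation p = 0.110, adjusted 0.221). The ratio was lower in cortex in 5 of 6 sham and 4 of 6 TBI rats, and neither difference passed the adjusted threshold. These tests permuted libraries and did not use the pairing of the regions within a rat. With the rat as a replicate block, exact sign flips gave p-values of 0.0625 in sham and 0.156 in TBI (adjusted 0.188 and 0.313). Sign flips of 6 rats cannot go below an unadjusted p of 0.03125, which after the adjustment could not pass. The adjusted values of this paired test therefore decide nothing. Without the 2 rats with shallow thalamus libraries both passed in the test without pairing, at -0.82 in sham (exact permutation test, adjusted p = 0.0238) and -0.38 in TBI (exact permutation test, adjusted p = 0.0317). With the pairing they did not, with adjusted p-values of 0.188 and 0.25 from exact sign flips, which cannot go below an unadjusted p of 0.0625 with 5 rats. The ratios of the cortex and thalamus of the same rat were not related (r = -0.39 in sham, exact permutation p = 0.435, rho = -0.09; r = 0.02 in TBI, exact permutation p = 0.979, rho = -0.20).

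The passenger arms were rare. miR-26b-3p had 3 to 13 reads per library in sham cortex (median 9), 3 to 24 in TBI cortex (median 11.5), 2 to 46 in sham thalamus (median 19.5) and 5 to 50 in TBI thalamus (median 17.5). Its means were 5.19 ± 1.93 and 5.99 ± 2.44 CPM in sham and TBI cortex (SD, n = 6 each), a log2 fold change of 0.33 (SE 0.32, edgeR adjusted p = 0.539). In thalamus they were 8.72 ± 2.57 and 10.0 ± 3.27 CPM, a log2 fold change of 0.13 (SE 0.28, edgeR adjusted p = 0.945), or 0.066 without rats 55 and 56 (edgeR adjusted p = 0.946). At this depth a change of the size of these errors could not be seen. Between cortex and thalamus the log2 difference was -0.56 in sham rats (edgeR adjusted p = 0.191) and -0.40 in TBI rats (edgeR adjusted p = 0.342), and with library size in place of TMM the sham value was -1.04 (edgeR adjusted p = 0.0154).

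Per 1000 reads of miR-26b-5p there were 3.37 ± 0.876 reads of miR-26b-3p in sham cortex, 3.31 ± 1.31 in TBI cortex, 3.76 ± 0.512 in sham thalamus and 3.71 ± 1.04 in TBI thalamus (SD, n = 6 each). The log2 arm ratio differed between TBI and sham by -0.08 in cortex (exact permutation p = 0.740) and by -0.10 in thalamus (exact permutation p = 0.714), less than the spread between rats. miR-26a-3p had 0 to 4 reads per library, with sums of 5 reads over the 6 sham cortex libraries, 12 over TBI cortex, 4 over sham thalamus and 3 over TBI thalamus. It was listed at 0 in 3, 1, 3 and 5 libraries of these groups, where a count of 0 allows up to 3 reads, or 5.73 CPM in the shallowest library. No fold change is given for it. miR-26b-3p, the passenger of the rarer guide, had sums of 53, 74, 123 and 138 reads over the same groups.

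**Figure D5:**
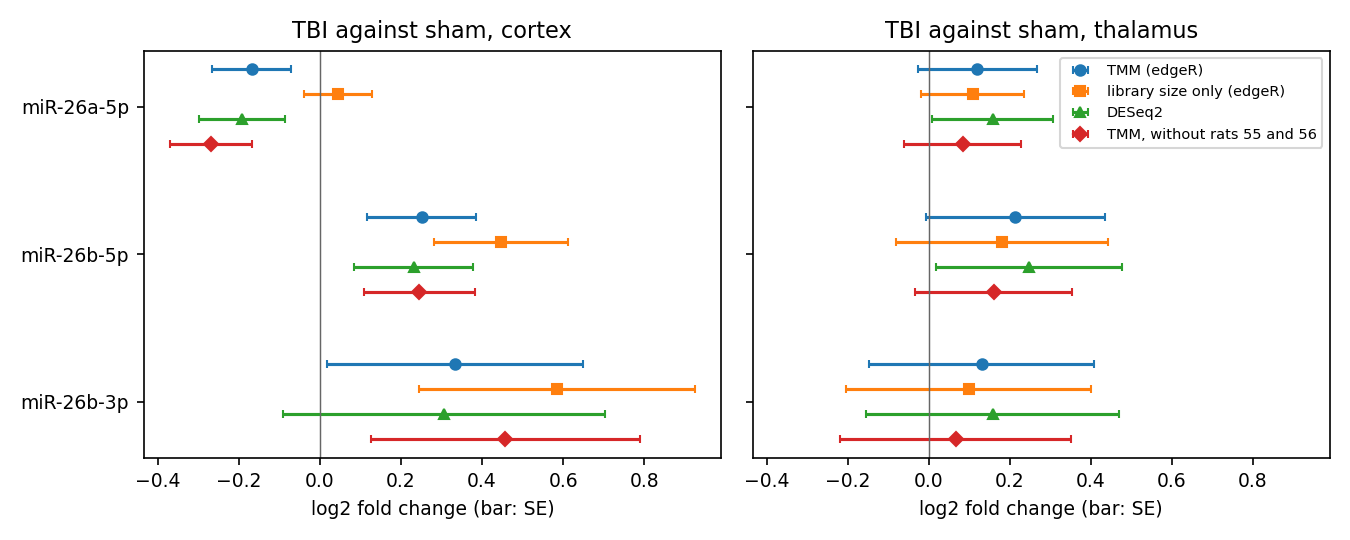
Log2 fold change of TBI against sham (x axis, bars are SE) of the 3 tested miR-26 rows in cortex and thalamus under TMM, library size only, DESeq2 and TMM without rats 55 and 56. The cortical value of miR-26a-5p is -0.17 under TMM and 0.04 under library size only, and the other values in cortex and all values in thalamus keep their sign.

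Both other abundant families with a shared seed that were set beside miR-26 gave no call either. Of the let-7 guide strands, regulators of developmental timing, 0 of 7 were called in each region, and their log2 fold changes spanned -0.19 to 0.36 in the cortex, and 0.03 to 0.56 in the thalamus. Of the miR-30 guide strands 0 of 5 were called, and they spanned -0.28 to 0.37 in the cortex, and -0.21 to -0.01 in the thalamus. The miR-26 guides in cortex, at -0.17 and 0.25, lay within the ranges of both other families. In thalamus, at 0.12 and 0.21, they lay within the range of let-7 and above that of miR-30.

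The 2 guides were not among the miRNAs most like each other. After the mean of each group was removed, their log2 levels had a correlation of 0.28 over the 24 libraries, and miR-26b-5p ranked 62nd of the 406 other miRNAs by likeness to miR-26a-5p. The miRNAs most like miR-26a-5p were miR-22-5p (0.74), miR-378b (0.65), miR-212-5p (0.64), miR-493-5p (0.59) and miR-543-3p (0.58). Those most like miR-26b-5p were miR-98-5p (0.82), miR-494-3p (0.80), miR-30c-5p (0.79), miR-142-5p (0.78) and miR-434-3p (0.78), and miR-26a-5p came 151st. These correlations describe libraries that share depth and scaling, and the libraries come in pairs from 12 rats. Their leading miRNAs were different for the 2 guides.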

How the data were processed

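Total RNA was extracted from perilesional cortex and ipsilateral thalamus and made into small RNA libraries by adapter ligation, size selection of short inserts and PCR, without molecular identifiers. Per the study's methods, reads were mapped to the rat genome build RGSC3.4 and annotated with miRBase release 20, and read quality was checked with FastQC. The aligner, the mismatches allowed and the treatment of reads that fit several miRNAs are not given in the sources used here. Adapter ligation favours some sequences, so that reads compare a miRNA between libraries better than 2 miRNAs within a library. The authors deposited raw counts per miRNA for each library, which were used for all tests, and CPM tables (counts per 1000000 reads), which on inspection held each library's counts divided by 1 constant and were not used for tests. miR-26a-3p is not listed in these CPM tables, and miR-26b-3p is not listed in those of the cortex. Deposited rows of tRNA features were not used, and no column of per-sample values was left unassigned. No replicate pair agreed within sampling noise (30 pairs per region, lowest chi-square per degree of freedom 31.4).

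Groups and rat numbers came from the labels. miRNAs were filtered with filterByExpr, scaled by TMM and tested with the quasi-likelihood test of edgeR (version 4.0.16, R 4.3.3) with Benjamini-Hochberg adjustment, on 12 libraries for each region and on all 24 for the regional comparisons. TMM factors were computed within each fit, so that CPM values of the 12-library and 24-library fits differ. SE was taken from the log2 fold change and the F statistic. Ratios of members were compared by exact permutation of libraries (smallest possible p 0.00216), with 0.5 added to each count for the arm ratio, which was tested where the passenger had a median of at least 10 reads. The relations of the ratio with depth and with miR-128-3p used exact permutation of the 6 libraries of a group, and those with miR-128-3p were chosen after the ratios were seen. Counting intervals and floors (3 reads for a count of 0) cover counting error only.

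The members, gene lists and tests were chosen with earlier results of these data known. Named miRNAs were the miR-26 rows, miRNAs sharing their seed, the 5 most correlated with each guide, the 2 neighbours above and below each guide by level, the let-7 and miR-30 guides by counts and ranges, and miR-128-3p and miR-9a-5p. Other miRNAs named are cell type markers that passed a test. Alternatives were library size only, DESeq2 (version 1.42.0), no filter, a mean of at least 50 counts, 1 fit of all 24 libraries, medians, the rat as a block, leaving out each rat, and leaving out rats 55 and 56, which was chosen after seeing the data. The cortex and thalamus libraries of a number come from the same rat. Their deviations from the group means correlated with a median r of 0.38 (-0.18 to 0.64, above 0.1 in 8 of 12 rats). The values were 0.30 to 0.64 in TBI rats and -0.18 to 0.49 in sham rats. The fits were tested on simulated counts. A simulated log2 change of 1 was called for 91.8% of the changed miRNAs in cortex and 62.9% in thalamus. A change of 0.5 was called for 36.7% and 20%. In the cortex simulation 98 of 361 miRNAs carried each size of change, a larger share than was called in the data. The adjustment calls more readily where more miRNAs change, so that these rates may be too high for the data. The fold changes of the miR-26 guides were smaller than 0.5, so that a guide not called may still differ between the groups.

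RefSeq gave mature sequences for 655 of the 728 rows. Its build, GRCr8, differs from that of the reads, so its coordinates were used only to place the sequences and the genes that span them.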

Additional observations from a re-analysis of the deposited data

How the results depend on the processing

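No miR-26 row was called between TBI and sham under any setting tried. With library size in place of TMM the cortical fold change of miR-26a-5p turned to 0.045 and its regional difference in sham rats to -0.13, both log2. The regional difference of the injury effect of miR-26b-5p turned to 0.26 with library size, 0.031 without the filter and 0.14 without rats 55 and 56, and lay between -0.17 and 0.21 when rats were left out in turn. The regional difference of miR-26a-5p in TBI rats turned to 0.0073 without rats 55 and 56 (-0.17 to 0.0064 leaving out rats). The ratio of the guides between TBI and sham was 0.45 in cortex and -0.020 in thalamus by medians, and 0.34 to 0.51 and -0.045 to 0.23 leaving out rats. Between cortex and thalamus it was -0.82 in sham and -0.38 in TBI without rats 55 and 56, and -0.82 to -0.49 and -0.38 to -0.19 leaving out rats. The arm ratio in cortex was 0.080 without rats 55 and 56, and -0.23 to 0.038 in cortex and -0.21 to 0.079 in thalamus leaving out rats. The cause of these changes was not tested.

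The number of miRNAs called in cortex, 21 (11 higher and 10 lower in TBI), was 39 (36 and 3) with library size, 41 (26 and 15) with DESeq2, 5 in 1 fit of all libraries, 32 without rats 55 and 56 and 4 to 30 leaving out rats, with the lowest count without sham rat 38 and the highest without sham rat 55. In thalamus the 2 calls became 1 at a mean of at least 50 counts, 5 in 1 fit of all libraries and 0 to 2 leaving out rats. Between the regions of sham rats 102 calls (50 higher and 52 lower in cortex) became 168 (22 and 146) with library size and 77 to 109 leaving out rats, and of TBI rats 111 (54 and 57) became 103 (34 and 69) and 87 to 121. No fit called a regional difference of the injury effect (0 to 0 leaving out rats). With the rat as a replicate block the regional counts were 128 in sham and 131 in TBI, miR-26a-5p in sham kept its call (0.31, adjusted p = 0.0463), and the ratio of the guides had adjusted p-values of 0.188 in sham and 0.313 in TBI (exact sign flips), or 0.188 and 0.25 without rats 55 and 56. With so few rats these sign flips could not reach an adjusted p of 0.05. The block changed no other call of a miR-26 miRNA. Depth limits the passenger arms, which had at most 50 reads in a library.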
